A study of Rattus norvegicus with 9 samples.

Results

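The RNAs described here were poorly represented in the m6A immunoprecipitate of control rat cortex. They were taken from the probes whose names begin with ASRN6AP1B, the most numerous name class of the array, and were chosen by their values on the 3 control arrays only: the IP and the Sup signal each had to be well above background on every control array, and the members had to have a mean log2 ratio of immunoprecipitated (IP) to supernatant (Sup) signal of -1.5 or less. The rule found 1723 probes, called the members below, of 18225 probes of the class that passed the same background filter, of 28015 probes of the class and of 41186 probes for transcripts in all. A ratio of -1.5 means that the IP signal made up 26.1% of the sum of both signals, and that the Sup signal was 2.83 times the IP signal. The scanner software had balanced the 2 dyes on each array, so the zero of the ratio is set by that scaling, and a share ranks a probe among the others without giving the fraction of its molecules that was captured. None of the members carries a gene symbol, an accession or a sequence in the files, so they are given by probe name and no function is assigned to them here.

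Each of 9 arrays held cortex RNA from 1 male Sprague Dawley rat. The study's methods give an age of 8 weeks at purchase, with 1 week of rearing before the experiment, and cortex of the ischemic side. These methods do not describe the BHD rats. The control group held 3 rats, labelled normal, which per the study's methods had the same neck surgery but no occluding plug. The model group held 3 rats with cerebral ischemia-reperfusion injury, taken on day 7, in which a wire plug blocked the middle cerebral artery for 2 h before reperfusion. The BHD group held 3 model rats, also taken on day 7, given Buyang Huanwu Decoction (BHD), a traditional Chinese herbal prescription used after stroke. Every array carried the IP fraction of a rat in Cy5 and its Sup fraction in Cy3, with no dye swap, so that a dye effect of a probe cannot be told apart from a low IP share.

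N6-methyladenosine (m6A) is the most common internal modification of messenger RNA. It is written by a methyltransferase complex around METTL3 and METTL14, removed by FTO and ALKBH5, and bound by YTH domain proteins, many of which shorten the life of the transcript. An antibody against m6A pulls methylated RNA molecules into the IP fraction, while molecules without the mark stay in the supernatant, so the ratio of the fractions ranks transcripts by how far they were captured. Long-lived messengers of basic cell functions are known for carrying little m6A, and the brain is known for a high m6A content.

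The arrays of a group correlated with one another at r of 0.894 to 0.975 in log2(IP/Sup) over the class, and arrays of different groups at 0.762 to 0.979. By scan time, slide 1 held all 3 controls with the first model rat, slide 2 held the other 2 model rats with BHD replicates 1 and 2, and BHD replicate 3 was alone on slide 3. Of the 1723 members, 1700 had IP and Sup signals well above background throughout the 9 arrays. The IP signal was not well above background for 2 members on model replicate 2, for 1 on model replicate 3 and for 19 on BHD replicate 3, and the Sup signal for 3 members on BHD replicate 3. Some spots of the members on the control arrays had been marked as outliers by the scanner software, for 159 members in all, and 0 member spots were saturated.

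On the control arrays, which chose the members, their median log2(IP/Sup) was -2.10, -2.13 and -2.07, and the group means ran from -5.52 to -1.501 around a median of -2.05. These values describe the choice and are not tested. Of the members, 927 lay at -2 or less, and 186 lay within 0.1 inside the limit, with 206 further probes of the class within 0.1 outside it. The member nearest the limit had a control mean of -1.501, with a mean of -1.07 on the model arrays and -1.41 on the BHD arrays, and the nearest probe outside had -1.49985 in control, with -1.29 in model and -1.33 in BHD. The control mean met the limit although not each array did: 1260 members (73.1%) were at or under it on all 3 control arrays, and 1488, 1586 and 1554 on control replicates 1, 2 and 3.

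The low IP share was present in the model and BHD rats too. On model replicates 1, 2 and 3 the median log2(IP/Sup) of the members was -2.12, -2.08 and -1.92, and on BHD replicates 1, 2 and 3 it was -2.01, -1.97 and -1.86. The medians of the class, members included, lay between -0.05 and 0.02 on the 9 arrays, far above those of the members on every array. Expressed as a share of both signals, the median IP share of the members was 18.7%, 19.1% and 20.9% on the model arrays and 19.8%, 20.4% and 21.5% on the BHD arrays, against 18.9%, 18.6% and 19.2% on the control arrays and 49.2% to 50.4% for the class.

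**Figure D1:**
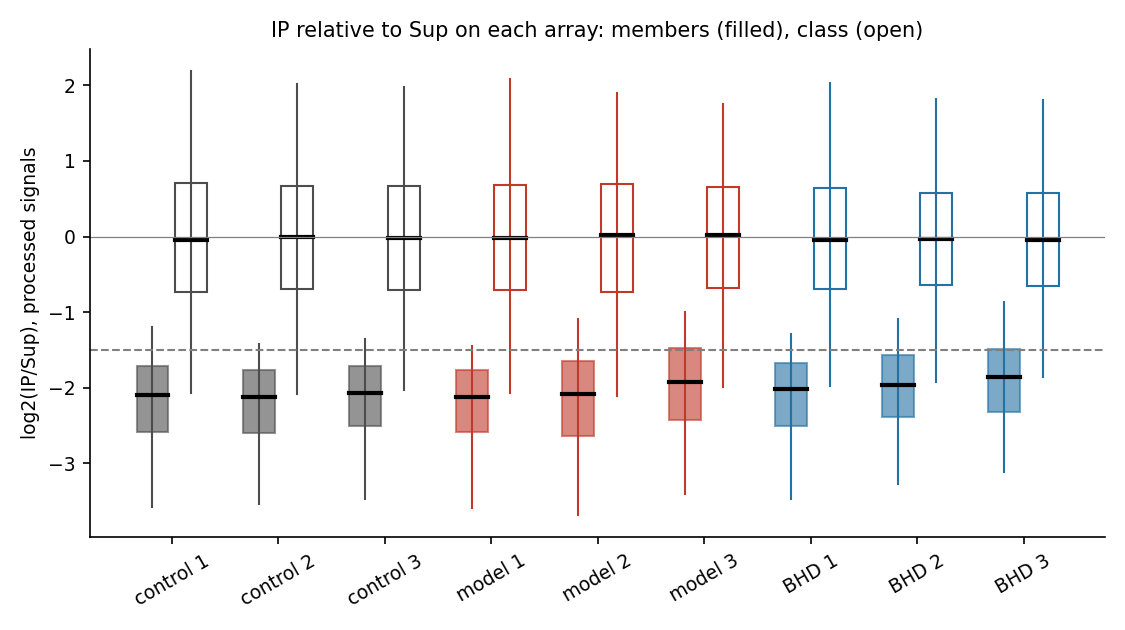
log2(IP/Sup) of the scanner software's processed signals on each of the 9 arrays, for the 1723 members (filled) and for all 18225 probes of the class that passed the filter (open). Boxes span the interquartile range, black bars are medians, lines run from the 5th to the 95th percentile, and the dashed line is the limit of -1.5. The members' medians sit between -2.13 and -1.86 and the class medians near 0. Control values chose the members.

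The limit that chose the members was met again by the mean of the model arrays for 1445 members (83.9%) and by the mean of the BHD arrays for 1393 (80.8%). Over the class and filter, 9.6% of the 18225 probes met it in model and 8.36% in BHD. Both means met it for 1247 members (72.4%), the model mean alone missed it for 146, the BHD mean alone for 198, and both missed it for 132 (7.66%). Members that missed it mostly stayed low: 24 had a model mean above -1 and 30 a BHD mean above -1. On single arrays the limit was met by 1605, 1401 and 1272 members in model replicates 1, 2 and 3 (93.2%, 81.3% and 73.8%) and by 1481, 1358 and 1284 in BHD replicates 1, 2 and 3 (86.0%, 78.8% and 74.5%). Model replicate 1, the array that shared the slide of the controls, held the most members at the limit, and the 3 arrays of a group differed in this count by more than the model and BHD means did.

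Read over all 6 model and BHD arrays, 916 members (53.2%) were at the limit on each, and 23 (1.33%) on none. A ratio below 0 on all 6 arrays was found for 1715 members (99.5%), and the other 8 reached a ratio above 0 on at least 1. In the other direction, 304 probes of the class outside the members met the limit in model and 130 in BHD. Across the members, the model and BHD means correlated with a Spearman rho of 0.74, and over the whole class with 0.92, a description over probes that share arrays. The members were chosen from the low end of the class, and a narrower range of ratios can lower rho. The difference from the class is therefore not read as a less stable order.

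**Figure D2:**
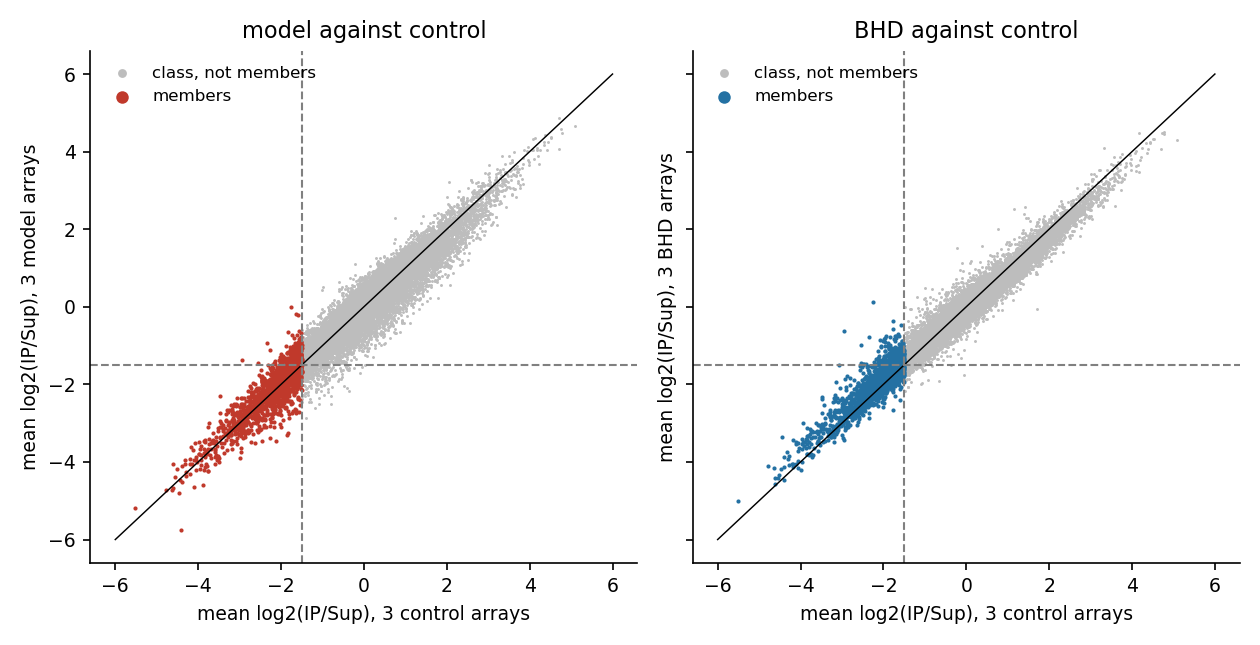
Mean log2(IP/Sup) on the 3 control arrays (horizontal axis) against the mean on the 3 model arrays (left) and the 3 BHD arrays (right), for every probe of the class that passed the filter. Members are coloured, dashed lines mark the limit of -1.5 and the diagonal marks equal values. Of the members, 1445 lie under the limit in model and 1393 in BHD.

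How often the limit was met again followed the depth of the control ratio. Members near the limit can cross it through the spread between rats alone, so this order follows from the distance to the limit and is only described. Of the 465 members with a control mean above -1.75, 53.3% met it in model and 53.3% in BHD. Of the 331 members from -1.75 to -2, 85.8% and 74.9% did, and of the 737 from -2 to -3, 98.1% and 95.9%. All 190 members at -3 or lower met it in both groups, with medians of -3.42 in control, -3.37 in model and -3.20 in BHD.

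Since the control arrays chose the members, their own counts are part of the choice. When the choice was made on 2 control arrays and the left-out control array was read like the others, that array put 75.8% of 1773 chosen probes at the limit for control replicate 1, 87.5% of 1709 for control replicate 2 and 84.6% of 1742 for control replicate 3. For the first choice the model arrays gave 90.2%, 86.6% and 78.7% and the BHD arrays 77.7%, 75.1% and 71.3%. For the second choice the model arrays gave 91.5%, 77.9% and 70.7% and the BHD arrays 88.1%, 76.9% and 73.2%, and for the third 89.7%, 77.6% and 71.1%, and 87.5%, 78.4% and 73.3%. A control array not used for the choice thus fell within the range of the 6 model and BHD arrays each time.

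In limma, run over all probes on ratios from which loess had removed the trend with intensity within each array, 1670 of the members could be tested, and 53 could not, since fewer than 2 values in a group remained once outlier spots were left out. On the model arrays, 1533 of the 1670 (91.8%) were lower in IP than in Sup by at least 1.5-fold with an unadjusted p under 0.05, where 12.4% of the 32595 probes tested were, and 1531 also passed the Benjamini-Hochberg adjustment. On the BHD arrays, 1545 (92.5%) were, where 12.5% of all probes were, and 1542 passed the adjustment. Of the 17846 tested probes of the class and filter, members included, 17.3% were lower in IP in model and 17.8% in BHD. The median ratio on this scale was -1.51 in model and -1.47 in BHD, smaller in size than on the processed signals. At an unchanged limit of -1.5, 1020 members met it on the loess scale in control, 880 in model and 862 in BHD, where 5.64%, 5.17% and 4.89% of the class did.

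Between the BHD and the model rats, the members' IP share differed in both directions. With the same thresholds of 1.5-fold and unadjusted p, 112 members (6.71%) differed, where 2.61% of all probes did: 66 (3.95%) were higher in BHD, where 1.26% of all probes were, and 46 (2.75%) were lower, where 1.35% were. Of the 17846 tested probes of the class and filter, members included, 3.82% differed. Of these, 1.69% were higher and 2.13% lower, so the share of lower members was near that of the class. At an unadjusted p alone, 256 members (15.3%) passed, against 10.9% of all probes. After Benjamini-Hochberg adjustment in limma, 0 members and 0 of all probes passed, with a smallest adjusted p of 0.430. The median difference over the 1670 members, BHD minus model, was -0.01, and 0.00 over all probes.

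Both this median and the balance of directions depended on the scaling and on single arrays. The median of the members was 0.10 on the processed signals, with 139 higher and 43 lower, and 0.12 in the deposited table, with 165 and 28. It was -0.04 with median centring, with 9 and 13, and 0.47 without normalization, with 255 and 0, where the median of all probes was 0.51. With the slide as a block it was -0.22, with 14 and 189, while the median of all probes was -0.01. Model and BHD rats shared only slide 2, so this estimate compared model replicates 2 and 3 with BHD replicates 1 and 2. Model replicate 1 and BHD replicate 3 gave no part of it. On the main scale, 52 were higher and 111 lower without model replicate 1, 18 and 59 without BHD replicate 3, 156 and 38 without BHD replicate 1, and 73 and 19 without model replicate 2. The estimate with the slide block, read as values within slide 2 with no test, was at least 1.5-fold higher in BHD for 70 members, where 5.97% of all probes were. It was that much lower for 211 (12.6%), where 3.35% were. No direction is therefore given for the members as a set.

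Single members lay far under the limit on every array. The lowest control mean was that of ASRN6AP1B10002083011, with log2(IP/Sup) of -5.65, -5.48 and -5.42 on control replicates 1, 2 and 3. Its ratios were -5.29, -5.21 and -5.09 on the model arrays and -5.58, -4.97 and -4.47 on the BHD arrays. Its IP share was thus between 1.95% and 4.31% on the 9 arrays, and its BHD values overlapped with those of both other groups. These are processed signals, and on the loess scale its mean ratios were smaller in size, at -3.80 in control, -3.29 in model and -2.97 in BHD. Its IP signal was low on that scale, at 5.92 to 6.34 in log2 on the 9 arrays, so the size of its ratio is uncertain. The next lowest, ASRN6AP1B10706081811, had -4.44, -4.88 and -5.01 in control, -4.84, -4.70 and -4.65 in model, and -4.60, -3.85 and -3.88 in BHD. On the processed signals its BHD values lay above all 3 model values. On the loess scale the groups overlapped, with -3.78, -3.01 and -3.32 in model and -3.41, -2.67 and -2.32 in BHD. Its difference on that scale was 0.57 (SE 0.33), with an adjusted p of 0.529 in limma, and 0.13 with the slide as a block. Its IP signal was also low on that scale, at 6.22 to 6.68 in log2 on the 9 arrays, so the size of its ratio is uncertain too.

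Of the 1563 members tested that had all 6 values and both signals well above background on the 6 model and BHD arrays, 45 (2.88%) passed the fold and unadjusted p upwards with groups that did not overlap, where 1.03% of 23334 such probes did. Downwards, 41 (2.62%) did, where 1.67% did. Among these 45, the largest difference was that of ASRN6AP1B10000249811, with log2(IP/Sup) of -2.48, -3.24 and -2.63 in model and -1.99, -1.29 and -0.92 in BHD. Its control values, -1.41, -2.13 and -2.46, had a mean of -1.999, between the means of model (-2.78) and BHD (-1.40). On the loess scale it was 1.34 (SE 0.35) higher in BHD, with an adjusted p of 0.430. ASRN6AP1B10129727911 had -4.18, -4.42 and -4.09 in model and -3.58, -3.30 and -2.71 in BHD, after -3.01, -4.16 and -4.11 in control. It was 1.31 (SE 0.45) higher in BHD on the loess scale, with an adjusted p of 0.430, and 0.82 higher without BHD replicate 3 or 0.84 with the slide as a block. On the processed signals it was far under the limit on all 9 arrays, but on the loess scale BHD replicate 3 was at -1.501. Its IP signal on that array was low, at 6.83 in log2, so the size of this difference is uncertain. In both of these members the Sup signal moved more than the IP signal: the differences, BHD minus model on the log2 scale, were -1.40 and -1.94 in Sup and -0.06 and -0.62 in IP.

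Among the 41, 1 of the largest differences downwards was that of ASRN6AP1B10006203111. This was one of the brightest probes of the class, at percentile 99.9 of total signal in model. It had log2(IP/Sup) of -1.29, -1.02 and -1.07 in model and -1.43, -1.84 and -2.37 in BHD, after -2.13, -1.48 and -1.24 in control. Its difference on the loess scale, BHD minus model, was -1.11 (SE 0.33), with an adjusted p of 0.430, and that of its total signal was 0.04 (SE 0.08). The difference in ratio was -0.75 on the processed signals and -0.26 without normalization. ASRN6AP1B10007162911 had -1.84, -1.19 and -1.35 in model and -2.60, -2.45 and -2.17 in BHD, after -2.89, -1.91 and -1.71 in control. Its difference was -1.03 (SE 0.31), with an adjusted p of 0.430, and -0.50 without normalization. Both missed the limit in the mean of the model arrays, at -1.13 and -1.46, and met it in the BHD arrays, at -1.88 and -2.41.

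**Figure D3:**
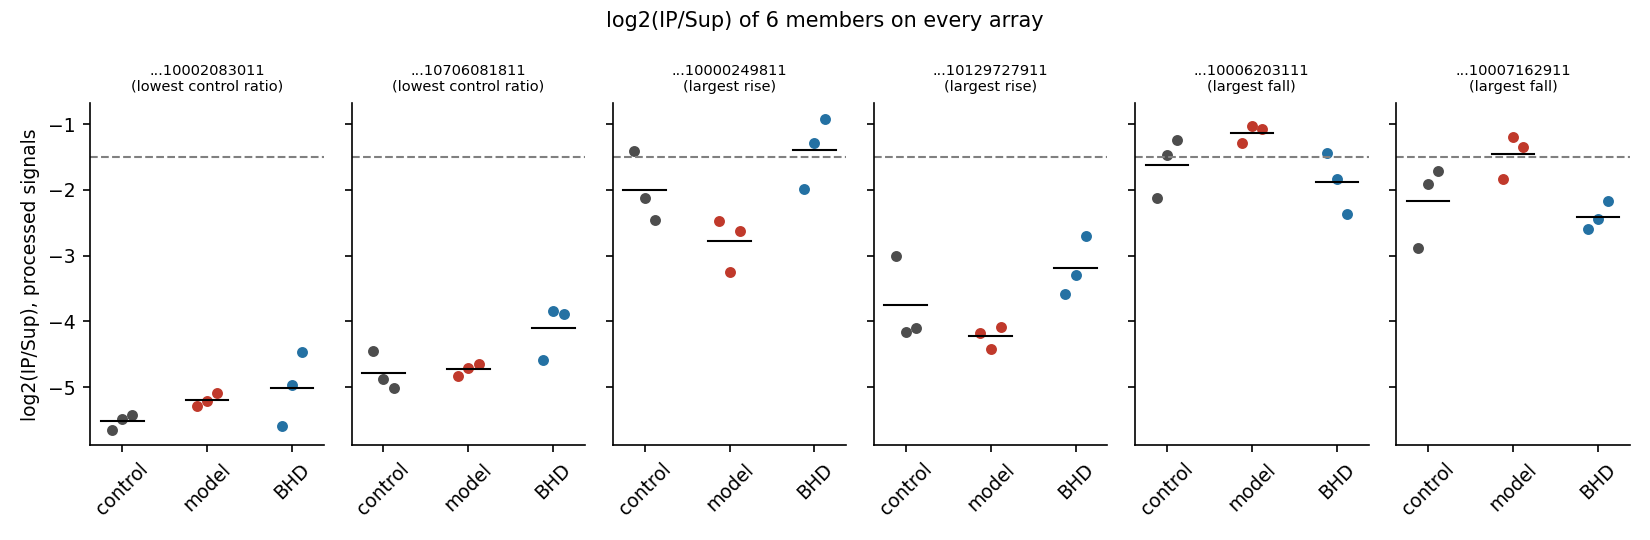
log2(IP/Sup) of the processed signals of 6 members on every array, each titled by its name without the shared start ASRN6AP1B and by why it is shown. The 2 titled as largest fall are among the largest falls, at -1.109 and -1.026, BHD minus model, on the loess scale. The largest fall of the 41 members was -1.112 and is not shown. Points are single rats, in replicate order from left to right, bars are means over 3 rats and the dashed line is the limit of -1.5. The 2 members with the lowest control ratio stay far under the limit on every array, and in the other 4 the BHD and model points do not overlap, as their choice required.

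The members had high total signals for their class. The rule asked for an IP signal well above background and, on average, a Sup signal at least 2.83 times as high. A raised total thus follows in part from the choice and does not show that these RNAs are abundant. Within the class and filter, and averaged over the 6 model and BHD arrays, the median member stood at percentile 68.2 of total signal (IP + Sup), and the median probe of the class at 49.9. By array this median was 69.3, 69.3 and 69.1 in model and 69.0, 65.9 and 65.5 in BHD, against 67.6, 68.4 and 69.4 in control. The total on the log2 scale of the processed signals had a median of 12.85 for the members, from 7.86 to 19.90, and of 11.44 for the class. Signals of different probes also depend on how well each probe hybridizes, so these percentiles rank signals, not molecules.

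The 2 fractions differed in what they showed. The median member stood at percentile 76.4 in Sup and at 50 in IP, with a median processed intensity of 5753 in Sup, against 1256 for the class, and of 1353 in IP, against 1335. The members thus had an IP signal of the usual size and a high Sup signal. The 1813 probes at the other end, with a control ratio of 1.5 or more, stood at percentile 65.9 in total, at 49.5 in Sup and at 73.9 in IP. A probe far from 0 in either direction has 1 bright channel, so a high total is shared by both ends.

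The members were spread over the whole range of signal. When the class was cut into deciles of total signal, they made up 75 of 1823 probes (4.11%) in the dimmest decile and 347 of 1823 (19%) in the brightest. Of the members, 1153 (66.9%) lay in the brighter 5 deciles and 20.1% in the brightest. The IP-rich probes made up 0.329% of the dimmest decile, 16.7% of decile 9 and 10.2% of the brightest. Across the members, total signal and the mean ratio on the model and BHD arrays had a Spearman rho of -0.23, against 0.02 over the class, which is a description, since both measures hold the Sup signal.

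**Figure D4:**
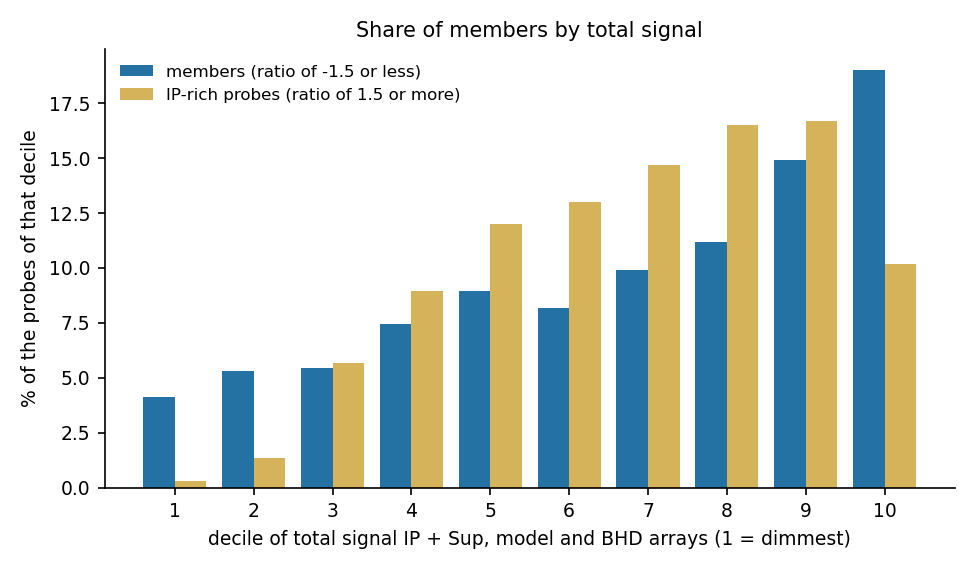
Share of the probes of each decile of total signal (IP + Sup on the model and BHD arrays, horizontal axis, 1 the dimmest) that are members or IP-rich probes (bars, % of the probes of that decile). The share of members goes from 4.11% in the dimmest to 19% in the brightest decile. The IP-rich probes reach 16.7% in decile 9.

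Brighter members had lower ratios, and their total is mostly the Sup signal of the same arrays. From the dimmest to the brightest quartile, their median ratio was -1.95, -2.03, -2.12 and -2.16 in control, -1.88, -2.01, -2.07 and -2.16 in model, and -1.73, -1.86, -1.98 and -2.13 in BHD. In the dimmest quartile of the members, 76.8% met the limit in model and 67.5% in BHD, and in the brightest quartile 88.9% and 92.1%. The spread between rats moved with the signal: the median SD of log2(IP/Sup) over 3 rats was 0.26 in model and 0.29 in BHD in the dimmest quartile, and 0.20 and 0.19 in the brightest. Over all members the median SD was 0.25, 0.24 and 0.23 in control, model and BHD, against 0.23, 0.22 and 0.19 for the class.

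The total signal of part of the members was lower in BHD than in model rats. On loess-normalized signals, scaled so that the mean log signal of both channels had the same distribution on every array (Aquantile), 269 of 1670 members (16.1%) were lower by at least 1.5-fold with an unadjusted p under 0.05, where 2.97% of all probes were, and 1 member was higher, where 0.279% of all probes were. In either direction this was 270 members (16.2%), where 3.25% of all probes passed. Over the class and filter, members included, 4.08% were lower and 0.415% higher. The median difference over all members was -0.02, and over all probes -0.01. After Benjamini-Hochberg adjustment in limma 0 members passed, with a smallest adjusted p of 0.0910, and 452 (27.1%) passed at an unadjusted p alone, where 13% of all probes did. In bulk tissue, fewer cells of a type and less RNA per cell cannot be told apart. Cell type markers could not be read here, since 2 of 37 fixed markers, the neuronal Map2 and Dlg4, matched a probe with an accession.

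Bright probes were lower in BHD more often than dim ones in general. Among the 830 members with a mean total above 10 on the log2 scale, 229 (27.6%) were lower, where 11.8% of all 6584 probes and 10.5% of the 5777 class probes above that level were. The Sup signal was lower in BHD for 274 members and higher for 7, where 2.73% and 0.249% of all probes were. The IP signal was lower for 202 and higher for 22, where 3.73% and 1.47% were. Over the class and filter, 3.65% were lower and 0.381% higher in Sup, and 5.25% were lower and 2.35% higher in IP. Of the 269, 255 were also lower in Sup and 161 in IP, 55 had a higher log2(IP/Sup) and 0 a lower one.

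The 269 members had median totals of 12.09, 12.03 and 12.07 on model replicates 1, 2 and 3. On BHD replicates 1, 2 and 3 the medians were 11.73, 10.88 and 10.40, and on the control arrays 11.61, 11.99 and 12.24. Since the 269 were picked as lower in BHD, these medians describe them and test nothing. BHD replicate 3, alone on slide 3, was the lowest BHD array in 247 and BHD replicate 2 in the other 22, and without BHD replicate 3 the count of lower members was 151. Over all 1670 members, as values within slide 2 with no test, 166 (9.94%) were at least 1.5-fold lower in BHD, where 1.98% of all probes were, and 15 were higher, where 0.985% were. With the slide as a block, which rests on the same model and BHD arrays of slide 2, 112 members passed downwards. The median log2(IP/Sup) of the 269 was -2.46, -2.30 and -2.03 on model replicates 1, 2 and 3 and -2.25, -1.78 and -1.73 on the BHD replicates, while that of the 1401 other members tested was -2.05, -2.05 and -1.90, and -1.98, -1.99 and -1.87. The limit of the ratio was met by 250 of the 269 in model (92.9%) and by 199 in BHD (74%).

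**Figure D5:**
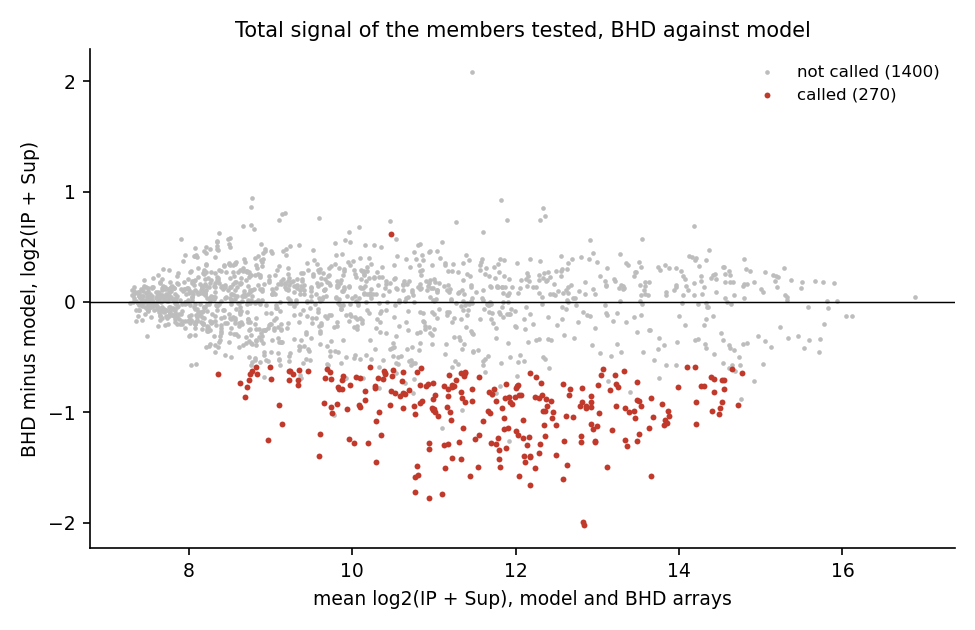
Difference in log2(IP + Sup), BHD minus model, of the 1670 members tested (vertical axis) against their mean log2(IP + Sup) on the model and BHD arrays (horizontal axis), both on the Aquantile scale. Red points passed the fold change of 1.5 and the unadjusted p, 269 of them under 0 and 1 above, and 0 passed after adjustment.

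Model minus control is given as values only, since the control arrays chose the members. On the loess scale, the median difference in log2(IP/Sup) of the members was 0.16, against 0.00 over all probes, with 57 members (3.41%) at least 1.5-fold higher in model, where 0.463% of all probes were, and 28 (1.68%) lower, where 1.9% were. On that scale the members' medians were -1.60, -1.65 and -1.63 in control. They were -1.71 on model replicate 1, on the slide of the controls, and -1.28 and -1.48 on model replicates 2 and 3, on slide 2. On the processed signals the medians of the group means were -2.05 in control and -2.02 in model. The median differences in total, Sup and IP signal were -0.07, -0.12 and 0.04. Since the rule held the control values at or under the limit, and slide and group cannot be fully separated, the shift of the ratio is not read as a change.

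Low ratios were also found in the other name classes of the array. The control mean was at -1.5 or less for 161 of 1681 probes of the ASRN6AP1A class that passed the filter (9.58%), for 186 of 1731 of the ASRNV class (10.7%), for 278 of 1278 of the ASRN6SM class (21.8%) and for 11 of 199 uc. probes (5.53%), beside 9.45% in the members' own class. Of the 34 probes with an accession that passed, 9 did (26.5%), and those with a symbol were Ldha, the lactate dehydrogenase A subunit, at -1.89 in control, -1.54 in model and -1.96 in BHD, and Pdk3, a pyruvate dehydrogenase kinase, at -1.65, -2.08 and -1.65.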

How the data were processed

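The authors deposited a scan file per array (Agilent Feature Extraction 11.0.1.1) with intensity values of each channel, among them a processed intensity that the software had adjusted for background and dye. The authors also deposited log2 signals of 32860 probes. For probes with a single spot, each column differs from log2 of that processed intensity by a constant, within 9.3e-09. The study's methods name GeneSpring for normalization. Precision is limited by the number of arrays, 3 per group.

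Levels used log2 of processed Cy5 (IP) over Cy3 (Sup) intensity, the scale of the rule. Tests used median intensities with normexp (offset 50), loess within arrays, control and outlier spots left out, spots of a probe averaged, and Aquantile for signals. Probes well above background in a channel on at least 3 of the 6 model and BHD arrays were fitted in limma 3.58.1 (R 4.3.3), with 1 coefficient per group over all 9 arrays. Calls needed a fold change of 1.5 and an unadjusted p under 0.05, with Benjamini-Hochberg beside it, over 32595 probes. Percentiles and tables used Python 3.11.15 and pandas 2.3.3, and figures matplotlib 3.10.9. The fits were also run on simulated data, with noise drawn independently for each probe and array. Such data hold no deviation shared by an array or a slide, so the simulation says nothing about errors of that kind.

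The members, lists and alternatives were chosen with earlier results of these data known. Named members were those with a symbol (0) and the 2 with the lowest control ratio. Added were 2 called members each way, among those with the largest difference between BHD and model. Their groups did not overlap, and their 2 channels were well above background on the 6 model and BHD arrays. Lists of ribosomal protein, respiratory chain, histone, m6A machinery, and small nuclear and nucleolar RNA genes matched 0 probes. Names came from the RefSeq gene table of assembly GRCr8, which matched 30 of 50 probes with an accession. Alternatives covered background correction, normalization, filter, outlier spots, adjusted p, deposited table, arrays in the fit, blocks, measure, comparison set, a limit of -2 and each array left out. Nothing says which rats shared a cage, litter or surgery day, and slides were read from scan times.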

Additional observations from a re-analysis of the deposited data

How the results depend on the processing

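The counts of members lower in IP than in Sup kept within 1.5 times the reported 1533 in model and 1545 in BHD under every scaling, filter and left-out array tried, at 1359 to 1545 and 1438 to 1573 with 1 array left out. Among the scalings they were lowest at 1277 in model, with median centring, and at 1227 in BHD, without normalization. They moved by more than 1.5 times only with a limit of -2, which leaves fewer members, at 869 and 875. The counts that met the limit in the mean went from 1445 to 880 in model and from 1393 to 862 in BHD on loess-normalized values, where 1020 met it in control, and to 913 and 897 with the limit of -2. They stayed at 1362 to 1510 and 1319 to 1456 with 1 array of the group left out, and at 1375 to 1568 and 1327 to 1416 when 2 control arrays chose the members, a setting added after the data were seen, as were the values within slide 2 and above a total of 10.

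The 112 members that passed for log2(IP/Sup), BHD against model, were 182 on processed signals, 22 with median centring, 255 without normalization, 193 in the deposited table, 203 with slide blocks, 63 with the limit of -2 and 0 after adjustment. With 1 array left out they were 77 to 194, the highest without BHD replicate 1. The 270 for total signal were 115 with slide blocks, 175 with the limit of -2 and 0 after adjustment, against 452 (27.1%) at an unadjusted p alone, where 13% of all probes passed. With 1 array left out they were 152 to 381, the lowest without BHD replicate 3 and the highest without BHD replicate 1. The causes were not tested, except that a limit of -2 or an adjusted p leaves fewer by construction.

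Same-numbered model and BHD arrays had deviations from their group means that correlated at r of 0.597, 0.0338 and 0.25, and model replicate 2 correlated best with BHD replicate 3, at 0.354, so the numbers were not taken as pairs. With the replicate block, 136 members passed for the ratio and 258 for total signal. The median percentile of 68.2 in total signal was 76.4 in Sup, 50 in IP, 71.6 among all name classes, 79.3 without the background filter and 72.1 with the limit of -2. It was 67.7 to 68.7 with 1 array left out. Dim members limit the ratio, since the IP signal of 19 members was not well above background on BHD replicate 3.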
